A study of Drosophila melanogaster with 2 samples.

Results

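The Cpr genes of Drosophila melanogaster encode cuticular proteins, and their sites of CG15269-eGFP binding in embryos are described here. Members were the protein-coding genes whose Ensembl BDGP6 symbol begins with Cpr followed by a digit, which gave 70 of the 13945 protein-coding genes on the 6 chromosome arms that carry peaks. Of these 70 genes, 35 lie on 3L, 21 on 2R, 5 on 2L, 5 on 3R and 4 on X. A gene counted as having a summit when the highest point of a peak lay within 500 bp of any of its transcription start sites (TSSs).

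The data are chromatin immunoprecipitation sequencing (ChIP-seq) peaks from whole embryos of both sexes, 6 to 18 h old by the source name, although a separate age field disagrees with it. All embryos came from a transgenic line that stably expresses CG15269 with a C-terminal eGFP tag, recovered with anti-GFP per the description (the antibody field says CG15269). There was 1 group of 2 biological replicates, numbered 2 and 3, with no other group to compare. No label says what drives the transgene, and in whole embryos strong binding in few cells and weak binding in many cells cannot be told apart. The 4 peak lists are a list for each replicate, a list called on both replicates together (the joint list) and the IDR list. The last is thresholded on the irreproducible discovery rate (IDR), which measures how far peak ranks agree between replicates. A peak kept in it can still rank differently in the 2 replicates. The IDR list holds 7029 peaks, which are the 7029 strongest of the 30000 in the joint list, and each replicate list also holds 30000. Each peak has a signal, the authors' own value with no unit stated, so levels are compared by rank between lists. The files hold no read totals, so depth is unknown.

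Insect cuticle is a layered exoskeleton of chitin fibres and proteins that epidermal and tracheal cells secrete late in embryogenesis and again at each moult. Cpr proteins carry the Rebers and Riddiford consensus, a domain that binds chitin, and are the largest family of structural cuticle proteins in flies. Many of their genes are short and stand in tandem clusters, and hormone signals through the ecdysone receptor and later nuclear receptors time their expression.

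The strongest binding sites of the Cpr clusters on 3L are shown first, because they carry what the IDR list holds there. Each sequence is of the + strand of dm6, taken from the RefSeq release 6 genome, with the 21 bases centred on the summit in capitals. The first site lies between Cpr65Eb and Cpr65Ec, the second between CG13297 and Cpr65Ay and the third before Cpr67Fb. The last 3 sites lie upstream of Cpr65Ea, Cpr67Fa1 and Cpr65Av, the Cpr genes with an IDR summit within 500 bp. The capitals are 61.9%, 66.7%, 90.5%, 81.0%, 81.0% and 61.9% A+T in the order printed. The sites lie at chr3L:7090862-7090962, chr3L:6157752-6157852, chr3L:10893580-10893680, chr3L:7086837-7086937, chr3L:10889466-10889566 and chr3L:6140333-6140433.
Cpr65Eb to Cpr65Ec: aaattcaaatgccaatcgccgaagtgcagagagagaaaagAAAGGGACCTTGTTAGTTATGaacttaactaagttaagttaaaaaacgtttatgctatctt
CG13297 to Cpr65Ay: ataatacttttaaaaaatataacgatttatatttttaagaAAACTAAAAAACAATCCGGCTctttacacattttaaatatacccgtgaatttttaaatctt
Cpr67Fb: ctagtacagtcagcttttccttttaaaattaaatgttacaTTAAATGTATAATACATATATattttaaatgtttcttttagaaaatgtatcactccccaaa
Cpr65Ea: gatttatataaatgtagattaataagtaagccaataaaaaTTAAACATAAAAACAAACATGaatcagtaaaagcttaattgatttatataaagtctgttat
Cpr67Fa1: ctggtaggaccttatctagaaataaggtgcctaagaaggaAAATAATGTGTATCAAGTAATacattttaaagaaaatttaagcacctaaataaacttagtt
Cpr65Av: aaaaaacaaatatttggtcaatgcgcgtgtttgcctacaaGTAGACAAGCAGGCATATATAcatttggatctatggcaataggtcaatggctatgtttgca

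Of the 70 Cpr genes, 3 had a summit of the IDR list inside the 500 bp window, a share of 4.29% (exact Clopper-Pearson 95% interval 0.893 to 12.0%). The share of all protein-coding genes was 20.6%. The interval and the others below cover counting error only, and no test of the difference was run. In the joint list, which also holds weaker peaks, 19 Cpr genes had a summit (27.1%, interval 17.2 to 39.1%), beside 36.3% of all protein-coding genes. The replicate 2 list gave 18 Cpr genes (25.7%, interval 16.0 to 37.6%) beside a background of 37.7%, and the replicate 3 list also gave 18, beside 39.3%. In both replicates' lists 14 Cpr genes had a summit, which is 20% (interval 11.4 to 31.3%) beside 32.1%. At least 1 of the 4 lists gave a summit to 24 Cpr genes (34.3%, interval 23.3 to 46.6%) beside 45.2%, and 46 Cpr genes had none in any list. The background lay above the interval of the Cpr share in the IDR list, in the replicate 3 list and in both replicates' lists. In the replicate 2 list it lay almost at the upper limit, at 37.7% against 37.6%. The intervals take genes as independent, although many Cpr genes stand in clusters. It lay inside the interval in the joint list and for any of the 4 lists.

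**Figure D1:**
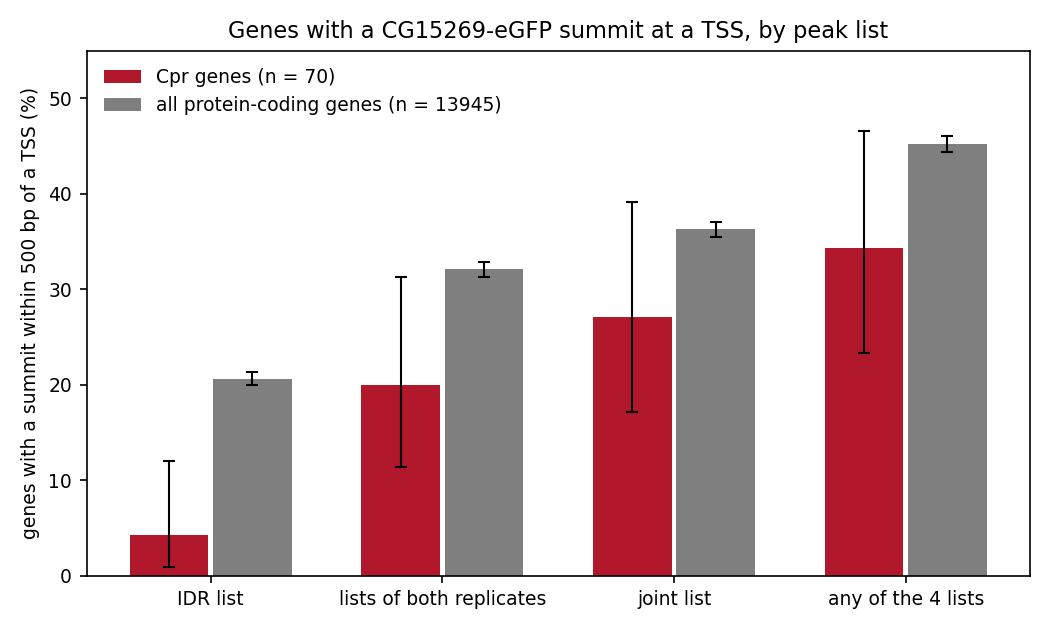
Share of genes (%) with a CG15269-eGFP summit within 500 bp of a TSS, for the 70 Cpr genes and all 13945 protein-coding genes, in 4 ways of reading the peak lists. Bars are shares and whiskers exact 95% intervals. The groups stand farthest apart relative to their level in the IDR list, at 4.29% and 20.6%.

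The ratio of the Cpr share to the background was thus lowest in the IDR list, which holds the strongest peaks. Of the 19 Cpr genes with a summit in the joint list, 3 passed the IDR threshold (15.8%, interval 3.38 to 39.6%), whereas 2876 of the 5056 protein-coding genes with such a summit did (56.9%). The strongest summit of the 19 Cpr genes had a median signal of 82.4, with a range from 37.4 to 356, beside a median of 187 over the 5056 genes. Most Cpr promoter summits, 16 of 19 by gene, thus ranked below the IDR list, whose lowest signal is 154.

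Cpr65Ea (FBgn0035735), on the - strand of 3L, had the strongest summit of any Cpr gene, 279 bp upstream of its TSS in the peak chr3L:7086749-7087047. Its signal was 356 in the joint list (rank 2767), 178 in replicate 2 (rank 2753) and 173 in replicate 3 (rank 3107). Its rank was thus close in the 3 lists. Cpr67Fa1 (FBgn0036108), on the + strand, had a summit 474 bp upstream, just inside the 500 bp window, in the peak chr3L:10889453-10889557. The signal there was 199.7 (rank 5333) in the joint list, 70.7 in replicate 2 (rank 8648) and 137.0 in replicate 3 (rank 3969), so it stood higher in replicate 3. Cpr65Av (FBgn0052405), on the - strand, had a summit 409 bp upstream in the peak chr3L:6140347-6140480. It had a signal of 170.04 (rank 6346) and, in replicate 2, of 89.0 (rank 6610). In replicate 3 the signal was 89.4 (rank 6388), for a summit 259 bp upstream. The rank of Cpr65Av was thus near the threshold in every list. These 3 summits lie outside genes, and none had a TSS of another gene within 500 bp.

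All 3 lay farther from the TSS than is usual for IDR summits. The median distance was 409 bp for the 3 Cpr genes and 158 bp over the 2876 genes with an IDR summit. In the joint list the median was 279 bp for the 19 Cpr genes and 146.5 bp over all 5056. The strongest summit was upstream of the TSS in 16 of the 19 Cpr genes (84.2%), beside 75.9% of all genes with a summit.

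The next strongest promoter summits of Cpr genes were below the IDR threshold. Cpr65Aw, the neighbour of Cpr65Av, had a signal of 123 (rank 8986) at 235 bp downstream of its TSS, with rank 12138 in replicate 2 and 7572 in replicate 3. Cpr65Eb, the neighbour of Cpr65Ea, had 114 (rank 9741) at 321 bp upstream, with rank 7637 in replicate 2 and 13719 in replicate 3. Cpr78Cb had 97.2 (rank 11481) inside the gene, 198 bp upstream of the more downstream of its 2 TSSs. Its ranks of 11887 and 14513 in the replicates were the closest of these genes to each other. Each of the 3 had a summit in both replicates.

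Cpr47Eg had a signal of 93.0 (rank 12027) inside the gene, 376 bp from its TSS, with ranks 15815 and 12905 in replicates 2 and 3. Cpr51A had 88.9 (rank 12601) with rank 10082 in replicate 2 and no summit within 500 bp in replicate 3. Cpr65Au had 86.7 (rank 12953) only 42 bp upstream of its TSS, with ranks 11045 and 25355. Replicate 2 thus placed the last 2 genes higher than replicate 3 did. Cpr78Cc had 82.4 (rank 13605) at 326 bp upstream. It had rank 19841 in replicate 2 for a summit 58 bp upstream, and the higher rank 9962 in replicate 3 for a summit 366 bp upstream. Replicate ranks given for a gene are of the strongest summit in its window in that list, which need not be the same site. The other 9 of the 19 genes had signals from 37.4 (Cpr62Bc) to 77.8 (Cpr62Ba).

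**Figure D2:**
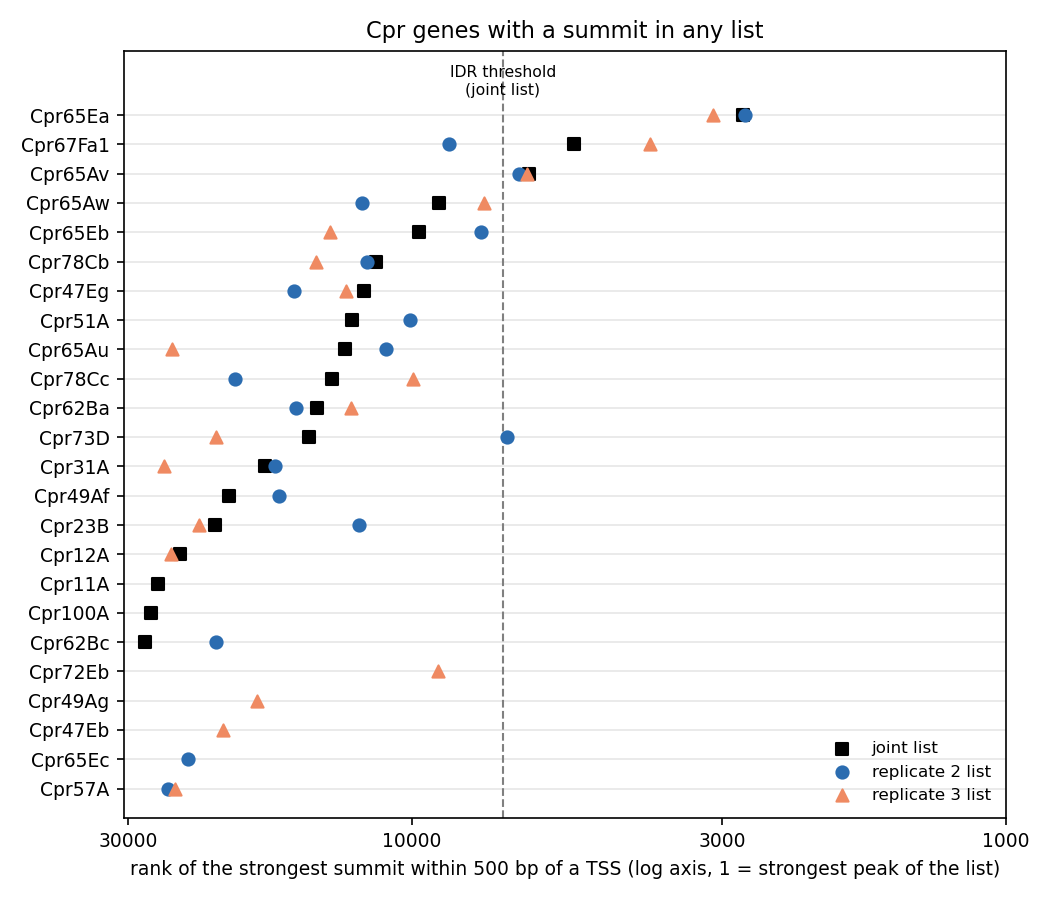
Rank of the strongest summit within 500 bp of a TSS (log axis, 1 is the strongest peak of a list) for the 24 Cpr genes with a summit in any list. Squares are the joint list, circles replicate 2 and triangles replicate 3; Cpr65Ea, Cpr67Fa1 and Cpr65Av have a square to the right of the dashed IDR threshold at rank 7029, and a gene without a symbol of one kind had no summit in that list.

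The replicates did not name the same weak genes in every case. Of the 19 genes, 13 had a summit in both replicates' lists, 4 in 1 of them and 2 (Cpr11A and Cpr100A) in neither. Another 5 genes had a summit only in replicate lists. These were Cpr72Eb, Cpr49Ag and Cpr47Eb in replicate 3, Cpr65Ec in replicate 2 and Cpr57A in both. With each list limited to its 7029 strongest peaks, either replicate alone gave 3 Cpr genes. Cpr65Ea and Cpr65Av were in both sets, with Cpr73D added in replicate 2 (rank 6900, against 21345 in replicate 3) and Cpr67Fa1 in replicate 3.

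The IDR count depended on the limit of 500 bp, but stayed below the background at the others tried. It was 0 within 200 bp beside 14% of all genes, 6 within 1000 bp (8.57%) beside 24.4%, and 10 within 2000 bp (14.3%) beside 30.5%. Among the 3514 strongest IDR peaks it was 1, Cpr65Ea. Just outside 500 bp, Cpr67Fb had an IDR summit at 543 bp, Cpr73D at 758 bp, Cpr65Ay at 828 bp, Cpr49Ad at 1159 bp, Cpr76Ba at 1617 bp, Cpr65Eb at 1900 bp and Cpr67Fa2 at 1916 bp. The median distance from a Cpr gene to its nearest IDR summit was 8530 bp (quartiles 3268 and 16014 bp), beside 6110 bp (quartiles 1097 and 15644 bp) over all protein-coding genes. The upper quartiles were close to each other and the lower quartiles were not. The nearest IDR summit was over 10000 bp away for 31 of the 70 genes and farthest for Cpr50Ca, at 54806 bp.

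**Figure D3:**
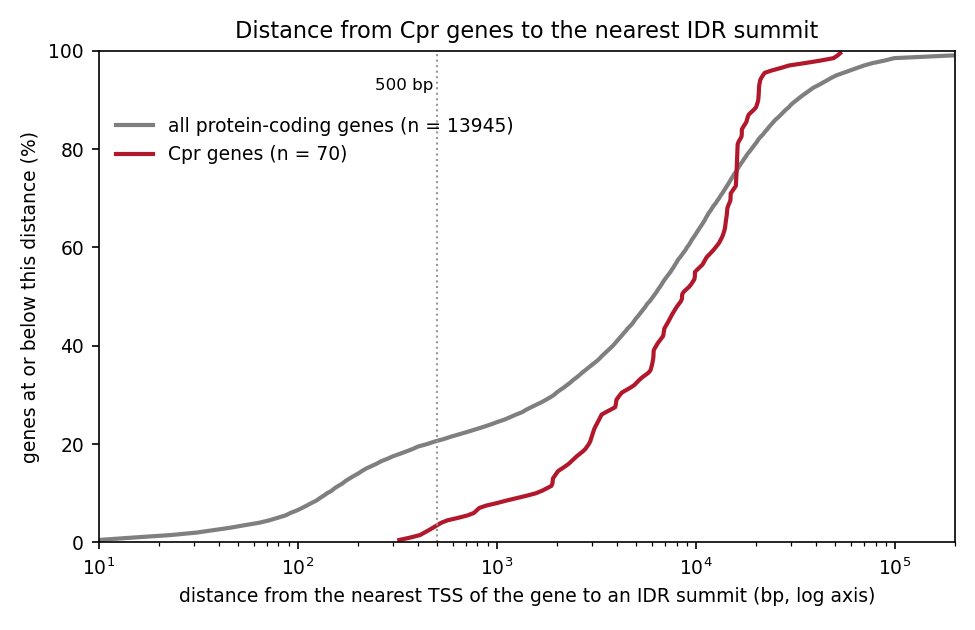
Share of genes (%) at or below a given distance (bp, log axis) from their nearest TSS to an IDR summit, for the 70 Cpr genes and all 13945 protein-coding genes. The curve of the Cpr genes starts at 279 bp and lies below that of all genes up to about the upper quartiles of 16014 and 15644 bp, where the curves cross.

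Cpr genes lie mostly in clusters, here taken as at least 3 Cpr genes with gaps of at most 20 kb and 500 bp added at each end. There were 10 such clusters with 45 Cpr genes, and the other 25 Cpr genes stood outside them. All 3 genes with an IDR summit were in clusters (3 of 45, 6.67%), while 0 of the 25 others had one, which allows a share of up to 13.7%. The interval of the first share (1.4 to 18.3%) overlaps that limit, so the counts do not separate the 2 sets. A joint-list summit but no IDR summit was found for 9 of 45 genes in clusters (20%) and 7 of 25 outside (28.0%). By arm, the IDR count was 3 of 35 on 3L (8.57%) and 0 of 21 on 2R (upper limit 16.1%), beside 22.7% and 19% of all protein-coding genes on those arms.

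The clusters themselves held 8 IDR summits in 0.1795 Mb, which is 44.6 per Mb beside 52.5 per Mb on the 6 arms. The 6 on 3L gave 53.5 per Mb beside 55.6 on that arm, and the 2 on 2R gave 29.7 beside 48.8. Of the 8, 3 lay within 500 bp of a Cpr TSS (37.5%), and such positions make up 26.5% of the cluster bases. Summits below the IDR threshold numbered 59, or 329 per Mb beside 172 on the arms. Of these, 45 were on 3L and 14 on 2R. With the IDR summits included, the joint list had 67 summits in the clusters, replicate 2 had 69 and replicate 3 had 63. The joint list then gave 454 per Mb in the clusters on 3L beside 246 on the arm, and 238 beside 205 on 2R. On 2R the replicates differed, with 208 per Mb in the clusters and 207 on the arm in replicate 2, and 253 and 203 in replicate 3. For summits of the joint list below the IDR threshold, the clusters on 2R had 208.2 per Mb beside 155.8 on the arm. In the joint list the clusters thus exceeded their arm on both 3L and 2R, and by more on 3L.

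IDR summits were unevenly spread over the clusters, and 5 of the 10 had none. The Cpr67Fa1 to Cpr67Fb cluster held 2 in 5.704 kb, the Cpr65Ea to Cpr65Ec cluster 2 in 8.839 kb and the Cpr65Au to Cpr65Az cluster 2 in 31.35 kb. On 2R, the Cpr47Ea to Cpr47Eg cluster held 1 in 27.7 kb and the Cpr49Aa to Cpr49Ah cluster 1 in 39.54 kb. The Cpr62Ba to Cpr62Bc and Cpr78Ca to Cpr78Cc clusters had no IDR summit but 10 weaker summits each, the strongest with signals of 115.2 and 104. The Cpr64Aa to Cpr64Ad, Cpr72Ea to Cpr72Ec and Cpr76Ba to Cpr76Bd clusters had no summit at all in the joint list.

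**Figure D4:**
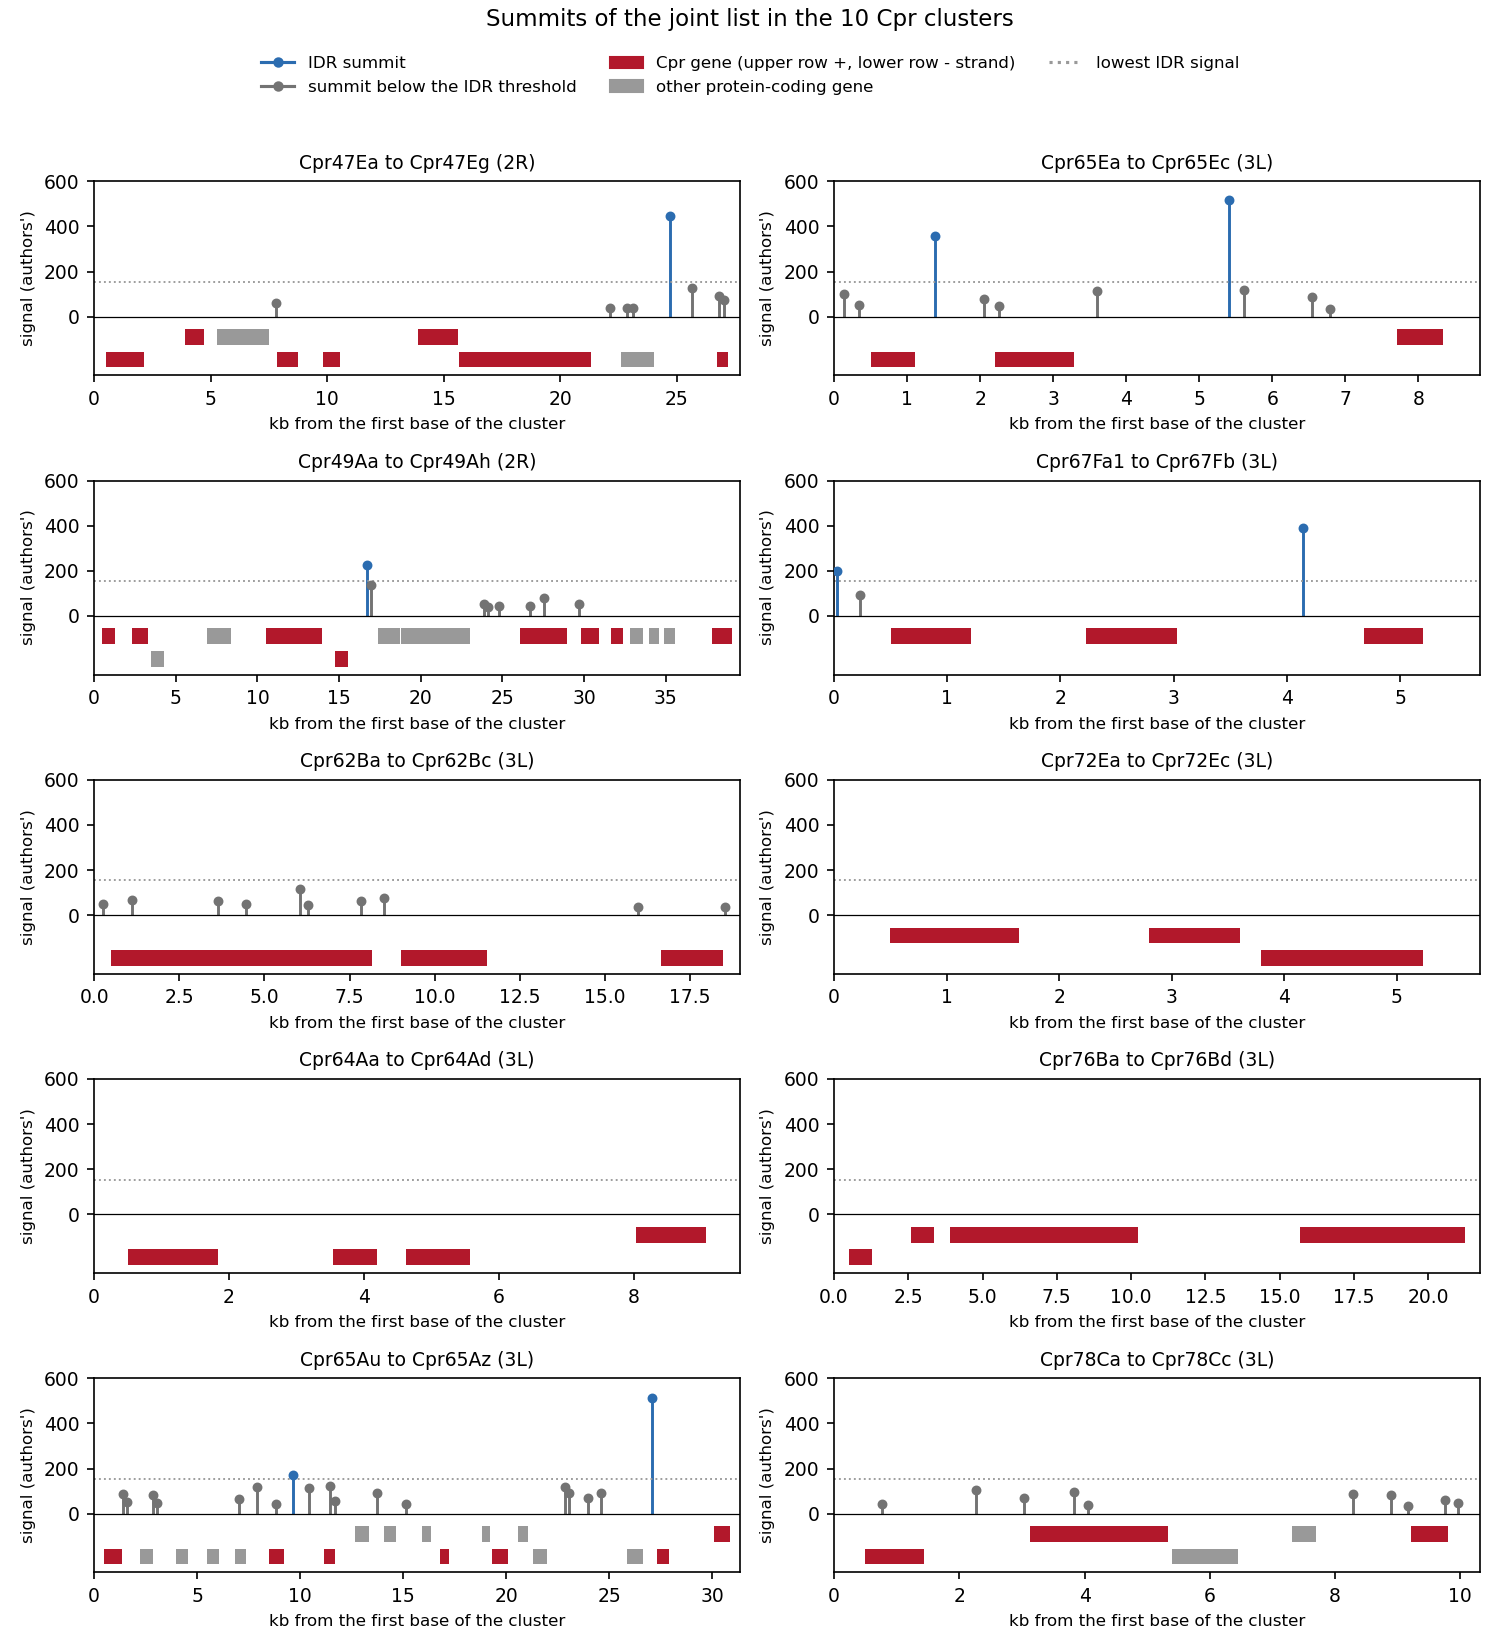
Signal (the authors' value) of summits of the joint list along the 10 Cpr clusters, by distance (kb) from the first base of each cluster, with gene bodies below. The 8 IDR summits stand outside gene bodies in 5 clusters, and the Cpr64A, Cpr72E and Cpr76B clusters are empty. The summit of Cpr67Fa1 lies in the 500 bp added before the first gene.

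All 8 IDR summits of the clusters lay outside protein-coding genes, as did 36.9% of all IDR summits. The clusters also have more such bases, 45.4% against 32.8% of the arms. The strongest of the 8 had a signal of 518 (rank 1703, peak chr3L:7090827-7091129) in the interval between the divergently transcribed Cpr65Eb and Cpr65Ec, 2125 and 2292 bp from their TSSs. It ranked 1846 in replicate 2 and 1677 in replicate 3, and so was reproduced at nearly the same rank. It is the first sequence printed above.

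The second, with a signal of 511 (rank 1736, peak chr3L:6157631-6157913), lay 425 bp upstream of CG13297 and 828 bp from the TSS of Cpr65Ay, past the end of that gene. It ranked 1976 and 1700 in replicates 2 and 3. The third, with 447 (rank 2073, peak chr2R:11275882-11276063), lay 660 bp upstream of TpnC47D, which encodes a muscle troponin C, and 2499 bp from the TSS of Cpr47Eg. It ranked 2885 and 1581. These 2 summits are nearer to the start of a gene outside the family than to a Cpr TSS.

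The fourth, with 389 (rank 2475, peak chr3L:10893416-10893770), lay 543 bp upstream of Cpr67Fb and was the least even between replicates, at rank 8122 in replicate 2 and 1375 in replicate 3. The fifth was that of Cpr65Ea. The sixth, with 227 (rank 4669, peak chr2R:12392653-12393062), lay 625 bp upstream of Or49a, an odorant receptor gene, and 1159 bp upstream of Cpr49Ad. The last 2 were those of Cpr67Fa1 and Cpr65Av. All 8 had a matched peak in both replicates' lists, and 5 of them exceeded the median IDR signal of 288.

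The 59 weaker summits of the clusters were placed differently. Of these, 37 lay outside coding genes (62.7%), 9 in introns (15.3%), 8 in untranslated exons (13.6%) and 5 in coding exons (8.47%). Of all 22971 summits below the threshold, 32.9%, 56.3%, 8.40% and 2.39% did so. Introns make up 18.8% of the cluster bases and 42.1% of the arms. Coding exons make up 24.5% and 17.1%, and untranslated exons 11.3% and 8.03%.

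The clusters also hold 22 protein-coding genes that are no Cpr genes. Of these, 1 (CG13297) had an IDR summit within 500 bp (4.55%, interval 0.115 to 22.8%), and 5 had a summit in the joint list (22.7%). Among the 22 are 11 cuticular protein genes with other symbols, namely Lcp65A genes, Acp65Aa and Edg78E. They had 0 IDR summits, which allows a share of up to 28.5%. Symbol alone sets them apart here, since their proteins also carry the Rebers and Riddiford consensus.

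The promoters of the Cpr genes were then compared in sequence with those of all protein-coding genes, over 250 bases before to 50 bases after the most upstream TSS. The TATA box word TATAAA was found on either strand in 49 of 70 Cpr promoters (70%) and in 45.8% of all promoters. On the gene's own strand with its first base 40 to 20 bases before the TSS, where a TATA box usually stands, it was found in 34 Cpr promoters (48.6%) and in 7.79% of all. Cpr65Ea, Cpr67Fa1 and Cpr65Av all had it there, whereas 3.55% of the 2876 genes with an IDR summit did.

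The 60 bases before the TSS are printed for these 3 genes and then for the remaining members of the Cpr65Ea to Cpr65Ec and Cpr67Fa1 to Cpr67Fb clusters, which have no IDR summit within 500 bp, on the gene's strand with TATAAA at its usual place in capitals. Among those 4, Cpr65Eb has weaker summits in the joint list and both replicates, Cpr65Ec has a summit in replicate 2 alone, and Cpr67Fa2 and Cpr67Fb have none in any list. In the order printed, the first base of the word is 29, 24, 27, 29, 26 and 32 bases before the TSS, and Cpr67Fb, the last, lacks it there. Over all 67 Cpr genes with no IDR summit, 31 (46.3%) had the word at this place. The sequences lie at chr3L:7086609-7086668, chr3L:10889930-10889989, chr3L:6139975-6140034, chr3L:7088788-7088847, chr3L:7093144-7093203, chr3L:10891654-10891713 and chr3L:10894113-10894172.
Cpr65Ea, IDR summit: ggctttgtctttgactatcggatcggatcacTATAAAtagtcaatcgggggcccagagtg
Cpr67Fa1, IDR summit: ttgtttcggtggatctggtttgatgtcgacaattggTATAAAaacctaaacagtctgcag
Cpr65Av, IDR summit: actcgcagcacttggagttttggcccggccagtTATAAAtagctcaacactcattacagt
Cpr65Eb: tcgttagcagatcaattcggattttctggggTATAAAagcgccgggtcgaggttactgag
Cpr65Ec: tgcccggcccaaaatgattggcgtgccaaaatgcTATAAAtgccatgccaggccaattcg
Cpr67Fa2: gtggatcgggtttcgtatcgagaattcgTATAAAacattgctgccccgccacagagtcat
Cpr67Fb: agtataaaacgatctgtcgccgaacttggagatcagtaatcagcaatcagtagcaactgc

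The Dref and M1BP words, of promoters used by many housekeeping genes, were rarer in the Cpr promoters. The Dref element TATCGATA was in 1 of 70 (1.43%) beside 9.36% of all promoters, and the M1BP element GGTCACACT in 0 beside 6.05%. The GAGA word GAGAGA was in 6 (8.57%) beside 12.3%, and the core of the initiator, TCAGT, in 42 (60%) beside 51.5%. At its usual place, on the gene's strand with its first base within 5 bases of the TSS, TCAGT was in 4 (5.71%) beside 10.3%. The words CAAGGTCA and AACCGGTT, of the nuclear receptor Ftz-F1 and the epidermal factor Grainy head, were in 0 Cpr promoters and in 0.495% and 0.753% of all. All words were searched on both strands. No word contains another, but matches can overlap at their ends, as those of CAAGGTCA and GGTCACACT do over GGTCA. In windows centred on the 8 cluster IDR summits, TATAAA was in 4 (beside 38.5% of windows of the same length at all IDR summits), TCAGT in 2 (beside 34.5%), GAGAGA in 1 (beside 9.69%) and the other words in 0. A match is a run of letters and not a site.

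Cpr promoters were also poorer in A+T, at 54.9% ± 6.01 (SD, n = 70) beside 60.9% ± 7.74 (SD, n = 13945). In 51 bp around the IDR summits of the clusters the A+T content was 69.9% ± 10.8 (SD, n = 8), beside 67.0% ± 11.2 (SD, n = 7029) around all IDR summits. Around the 30 summits of the joint list that lie within 500 bp of a Cpr TSS it was 55.1% ± 14.5 (SD, n = 30). The 27 of them below the IDR threshold had 53.5% ± 14.2 (SD, n = 27), beside 59.7% ± 11.8 (SD, n = 22971) around all summits below it. The strong sites had a mean above that of their kind and the weak sites a mean below it, each by less than 1 SD. This SD is the spread of single windows, so it does not say how sure a difference of means is. These are descriptions of windows that share loci, and the part of base composition in the calls was not tested.

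Most Cpr genes are short and have 1 TSS, although Cpr73D spans 18590 bp and Cpr47Ef has up to 17 exons. Of the 70, 63 have 1 TSS, their median length is 1093.5 bp beside 2166 bp over all protein-coding genes, and 4 (5.71%) have a TSS of another gene on the opposite strand at most 1000 bp upstream, beside 36.2% of all. With a head-to-head neighbour, 1 summit can count for 2 genes. Among genes with 1 TSS, 3 of 63 Cpr genes had an IDR summit (4.76%, interval 0.993 to 13.3%) beside 14.6% of all. Without a head-to-head neighbour it was 3 of 66 (4.55%, interval 0.947 to 12.7%) beside 14.5%. With both conditions it was 3 of 60 (5%, interval 1.04 to 13.9%) beside 9.12%, which lies inside the interval. In the joint list the Cpr share in these 3 sets was 25.4%, 25.8% and 23.3%, beside 28.2%, 31.7% and 23.9%.

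Among genes with TATAAA at its usual place, 3 of 34 Cpr genes had an IDR summit (8.82%, interval 1.86 to 23.7%) beside 9.38% of all such genes. With all 3 conditions it was 3 of 32 (9.38%, interval 1.98 to 25%) beside 6.57%. The Cpr share was thus near that of all such genes in both sets with this TATA box. Both intervals also hold the 20.6% of all protein-coding genes. Among genes without the word at this place, 0 of 36 Cpr genes had an IDR summit, beside 21.6% of all such genes. In the joint list the 2 sets with the word gave 32.4% and 31.2% of Cpr genes beside 24.9% and 23.3%.

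Among genes with promoter A+T within the quartiles of the Cpr promoters, 2 of 37 Cpr genes had an IDR summit (5.41%, interval 0.661 to 18.2%) beside 20.1%. With 1 TSS and no head-to-head neighbour added it was 2 of 30 (6.67%, interval 0.818 to 22.1%) beside 10.6%. Among genes with lengths within the Cpr quartiles it was 0 of 34, which allows a share of up to 10.3%, beside 14.4%. The background lay above the interval in the sets by A+T alone and by length, and inside it in the set between them. In the joint list the 3 sets gave 37.8%, 33.3% and 23.5% of Cpr genes beside 38.9%, 28.7% and 26.4%, so no gap of like size was seen there. The part of promoter type in the count was not tested.

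**Figure D5:**
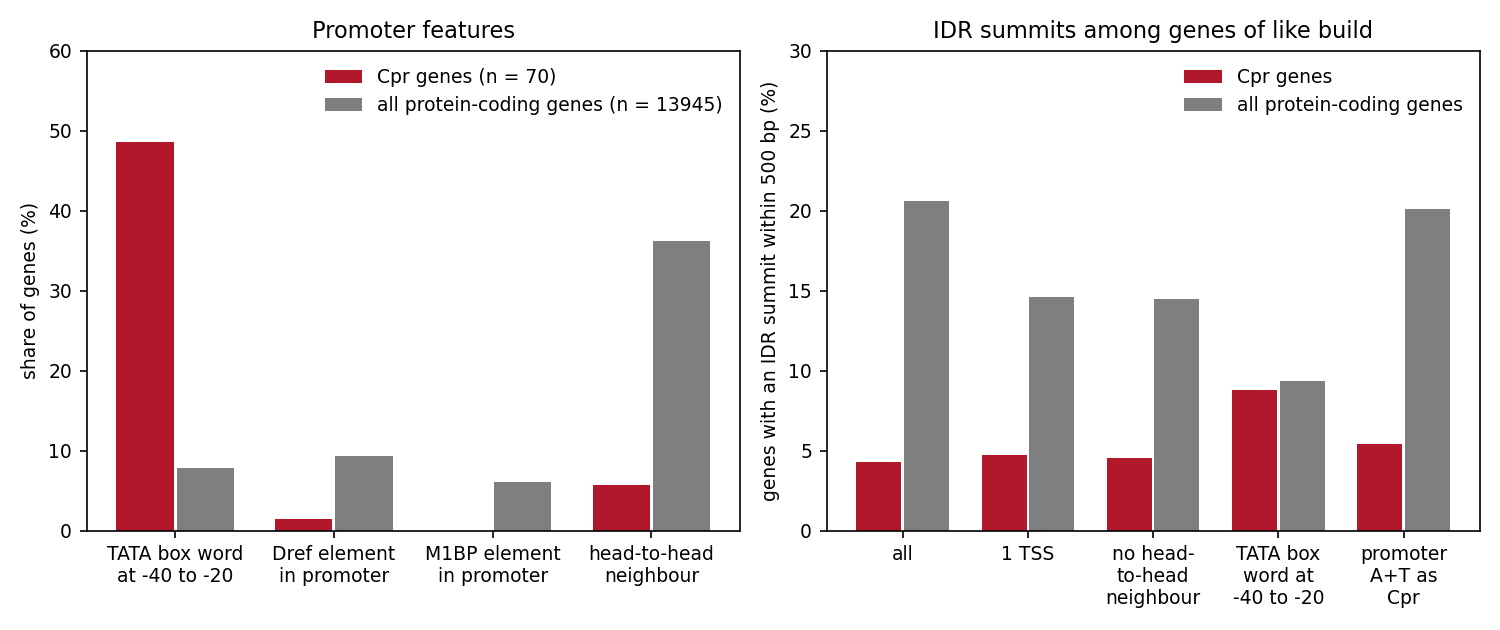
Left, share of genes (%) with each promoter feature, for the 70 Cpr genes and all 13945 protein-coding genes. Right, share (%) with an IDR summit within 500 bp among genes of like build. The Cpr bar rests on 2 or 3 genes in each set and is below that of all genes in the 5 sets drawn. It is nearest, at 8.82% and 9.38%, among genes with the TATA box word at its usual place. Genes without the word there, not drawn, gave 0 of 36 Cpr genes beside 21.6% of all such genes.

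Genes of a list around chitin, the other main component of cuticle, had summits more often. The list is mixed and also holds chitinase, Hexo and Idgf genes, so its share is not that of chitin synthesis alone. Neither it nor the lists below were matched to the Cpr genes in TSSs or head-to-head neighbours. In the list for chitin synthesis and assembly, 15 of 28 genes had an IDR summit (53.6%, interval 33.9 to 72.5%) beside the background of 20.6%. In the joint list 22 did (78.6%, interval 59.0 to 91.7%) beside 36.3%. The IDR interval of this list does not overlap that of the Cpr genes, but no test was run. Members included kkv, the chitin synthase of the epidermis (signal 535), knk, which organises newly made chitin (816), and the chitinase gene Cht7 (1207). Some members shared a summit with another gene, as Idgf2 did with CG5888. Of 57 cuticular protein genes with other symbols, such as Twdl and Lcp, 2 had an IDR summit (3.51%, interval 0.428 to 12.1%). These were the Tweedle genes TwdlY (185) and TwdlD (176), and the share was near that of the Cpr genes. The 57 were listed by symbol and include genes of the same protein family as Cpr, such as the Lcp65A genes. In the joint list 17 of the 57 had a summit (29.8%, interval 18.4 to 43.4%).

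Among 18 regulators of cuticle genes 6 had an IDR summit (33.3%, interval 13.3 to 59.0%), an interval that holds the background of 20.6%. In the joint list 14 did (77.8%, interval 52.4 to 93.6%), an interval above the background of 36.3%. By IDR signal the order was as follows. Eip75B (1225), usp (420.4) and EcR (249.7), all of the ecdysone response, were highest, and the usp summit is also within 500 bp of CG4313. An IDR summit was found for 3 of 20 genes for hardening and colouring the cuticle (15%, interval 3.21 to 37.9%). These were speck, Pu, whose summit is shared with CG4286, and amd. In a list of 10 genes drawn up for peritrophin-type chitin-binding cuticle proteins, 1 had an IDR summit, dpy (10%, interval 0.253 to 44.5%). The protein of dpy is not of this type, so the 10% is a share of the list and not of that class. The intervals of this list and of the hardening and colouring list both hold the background too. Of 179 chemoreceptor genes 0 had an IDR summit, which allows a share of up to 2.04%. Of 51 odorant binding protein genes 3 did (5.88%, interval 1.23 to 16.2%), and both shares were below the background of 20.6%. In the joint list they were 5.03% and 15.7%, beside 36.3%. Many genes of these 2 families also stand in tandem clusters. CG15269 itself had no summit within 500 bp, and its nearest IDR summit was 1936 bp away.

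Few Cpr genes lie in repeated sequence. More than 10% of the 32-base words within 500 bp of the TSS occur elsewhere in the genome for 2 of 70 Cpr genes (2.86%), the near-identical Cpr65Ax1 (73.8%) and Cpr65Ax2 (69.8%), beside 3.94% of all protein-coding genes. For these 2 genes a missing summit is uncertain, since no label or header says how reads with several matches were treated. For Cpr67Fa1 and its copy Cpr67Fa2 the shares were 7.29% and 5.99%.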

How the data were processed

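Peaks came from ChIP-seq with anti-GFP on 2 biological replicates of CG15269-eGFP embryos, on dm6 per the labels. Per the deposited text files, peaks were called against a control alignment, for each replicate alone and for the replicates combined (the joint list), and controls were not analysed here. For the aligner, peak caller and IDR cutoff, names and settings were not given in the sources used here. A peak signal is the value deposited by the authors, with no stated scale, and the -log10 q-value deposited by the authors is 4.20 for every IDR peak, so it ranks none.

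Summits were placed from the deposited offsets and joined to Ensembl release 115 genes (18164 without transposable elements, 23998 TSSs), with bases from the RefSeq release 6 genome, whose arms contain every peak. A gene's value is its strongest summit within 500 bp. Shares have exact Clopper-Pearson 95% intervals, and no test was run. Members and lists were chosen with earlier results of these data known. Of the list names, 12 matched no protein-coding gene.

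Genes were named by rule: Cpr genes with an IDR summit, the 10 with the highest signal in the joint list, those 500 to 2000 bp from an IDR summit, the IDR summits of the clusters, the first and last gene of each cluster, up to 6 bound members of each other list, and CG15269. Not every gene this takes is described, and Cpr genes outside it (exceptions and extremes) were picked after their values were seen. Sets of genes of like build, the TATA box position, the places of summits and the repeat check were also added after seeing the data. Alternatives were other windows, stricter peaks, single replicates, other cluster rules and other assignments. The counting was tested on simulated data. Python 3.11.15, numpy 2.4.6, pandas 2.3.3, scipy 1.17.1 and matplotlib 3.10.9 were used.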

Additional observations from a re-analysis of the deposited data

How the results depend on the processing

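Of 31 alternatives, 21 kept their count within 1.5 times that reported or their value within the spread, and 10 did not. The Cpr genes with an IDR summit numbered 0 within 200 bp (background 14%), 6 within 1000 bp (24.4%), 10 within 2000 bp (30.5%), 1 among the 3514 strongest IDR peaks (Cpr65Ea, 13.3%) and 19 among all peaks of the joint list. In each of these the Cpr share was below the background. Leaving out a replicate gave 3 each time, and peak overlap in place of the summit gave 4. The cluster summits fell to 5 (27.9 per Mb, genome 26.2) among the 3514 strongest, and leaving out a replicate gave 6 to 10 (33.4 to 55.7 per Mb). Without the 500 bp added at cluster ends the clusters held 7 (41.3 per Mb). Non-Cpr genes in the clusters with an IDR summit numbered 0 within 200 bp and 3 within 1000 bp, and 1 without either replicate. In the joint list the Cpr count was 11 within 200 bp and 12 among its 15000 strongest peaks, and 18 from either replicate's list. No paired analysis was possible because there is 1 group and no contrast. With 2 replicates, unknown depth and 3 bound genes, differences among Cpr genes are limited by counting.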
